A study of Mus musculus with 19 samples.

Results

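The genes described here are 50 genes of mitosis and the kinetochore, chosen by symbol from a list that spans the mitotic cyclins, mitotic kinases, the spindle checkpoint, the kinetochore, spindle motors, cytokinesis and chromosome condensation. All 50 were among the 29861 rows of the deposited expression table, and all 50 passed the filter for testing, a TPM of at least 1 in at least 6 lines. TPM is a transcript level corrected for transcript length and scaled to the same total in each library. RNA had been sequenced from 19 mouse organoid lines, which are epithelial cultures grown as hollow spheres in a basement membrane gel. The 7 normal lines came from pancreatic ducts of wild-type mice. The 6 PanIN lines were derived from pancreatic ducts of mice whose pancreas held pancreatic intraepithelial neoplasia, a precursor of ductal adenocarcinoma; these mice carried Pdx1-Cre, a recombinase expressed under a promoter active in pancreatic progenitors. The 6 tumor lines came from adenocarcinomas of mice that carried Pdx1-Cre and also Trp53LSL-R172H, a mutant p53 allele that Cre switches on. All mice had the C57B6/J background, every line was grown in 1 common medium, which held the growth factors EGF and FGF-10, gastrin, noggin, R-spondin and A83-01, an inhibitor of the TGF-beta receptor, and ages were not given in the labels. The sexes were 5 female and 2 male among the normal lines, 3 and 3 among the PanIN lines, and 3 and 3 among the tumor lines. The labels do not say whether lines shared a mouse, so p-values reflect how far lines differ, which may in part be technical.

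Mitosis begins when CDK1 bound to cyclin B becomes active, after which condensins compact the chromosomes and motors build the spindle. Kinetochores, assembled on centromeres that carry the histone variant CENP-A, attach chromosomes to spindle microtubules, and unattached kinetochores keep the checkpoint on until the anaphase-promoting complex (APC/C) with CDC20 releases separase and degrades cyclin B. Most of these genes are transcribed mainly in late S, G2 and M phase, so in bulk RNA they serve as a readout of cycling cells, and in pancreatic ductal epithelium they are low at rest and high in growing cultures. In bulk samples, fewer cells in mitosis and less RNA per cell cannot be told apart.

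TPM carries no read depth, so how many reads lie behind a value cannot be given. Markers of duct epithelium were above 1 TPM in every group for 8 of 8 genes. The summed level of fibroblast markers reached at most 0.09 TPM in a line, of endothelial markers 0.67 TPM and of endocrine markers 0.1 TPM. Summed acinar markers lay between 0.79 and 2.36 TPM. Summed leukocyte markers lay at 4.15 to 8.19 TPM in normal, 2.72 to 3.61 TPM in PanIN and 1.46 to 3.85 TPM in tumor lines. Every normal line was thus above every other line in that sum. Of these markers Cd68 was at 1.2 to 3.65 TPM and Csf1r at 0.18 to 5.57 TPM. Ptprc reached at most 0.09 TPM, and Cd3e and Laptm5 were at 0. The line normal 11 stood apart from the other normal lines in the genes described here, and is named wherever a result rests on it.

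Cell cycle genes of G2 and M phase are known to share promoter elements: the CHR, read by the DREAM and MuvB complexes, and CCAAT boxes bound by NF-Y. Of the 50 genes, 42 had an entry in the RefSeq promoter table (GRCm38.p6). The 250 bases before each transcription start were searched on both strands for TTTGAA and TTTAAA (letters of the CHR), CCAAT, and TTTCCCGC and TTTGGCGC (letters of E2F elements), with overlapping matches counted. TTTGAA was found in 38.1% of the 42 genes and in 18.3% of all 27025 genes in the table, and TTTAAA in 16.7% against 13.7%. CCAAT was found in 73.8% against 37.5%, and 2 or more CCAAT in 50.0% against 11.5%. Either CHR form together with CCAAT was found in 47.6% against 10.1%. The E2F letters were found in 2.38% against 1.51%. A match is a description of the letters and not evidence of binding. The sequences below show Ccnb1, Cdk1, Plk1 and Cenpa. Over the 19 lines these correlated at 0.967, 0.974, 0.973 and 0.932 with the mean of the other genes. Also shown are 3 genes that followed the others less closely, Bub3 (0.875), Gtse1 (0.373) and Pttg1 (0.322). Cenpf, also at 0.875, is not shown. Each sequence runs 5′ to 3′ on the strand of the gene and ends at the base before the start. Bub3 and Gtse1 each have 2 starts in RefSeq, of which the most upstream is shown. The shares above count a gene if any of its starts has a match. Capitals mark the CHR letters and CCAAT, or their reverse complements.
Ccnb1, chr13:100786487-100786736, minus strand: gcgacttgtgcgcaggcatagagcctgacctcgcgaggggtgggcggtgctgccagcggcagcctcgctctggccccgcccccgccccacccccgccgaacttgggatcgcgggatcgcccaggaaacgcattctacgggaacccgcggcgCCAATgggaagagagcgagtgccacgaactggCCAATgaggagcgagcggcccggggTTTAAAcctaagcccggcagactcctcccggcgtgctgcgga
Cdk1, chr10:69352913-69353162, minus strand: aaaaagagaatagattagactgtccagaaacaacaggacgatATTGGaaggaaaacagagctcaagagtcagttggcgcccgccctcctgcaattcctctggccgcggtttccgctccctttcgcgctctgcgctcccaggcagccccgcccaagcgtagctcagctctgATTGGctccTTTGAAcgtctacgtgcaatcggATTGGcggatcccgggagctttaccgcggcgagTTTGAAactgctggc
Plk1, chr7:122159185-122159434, plus strand: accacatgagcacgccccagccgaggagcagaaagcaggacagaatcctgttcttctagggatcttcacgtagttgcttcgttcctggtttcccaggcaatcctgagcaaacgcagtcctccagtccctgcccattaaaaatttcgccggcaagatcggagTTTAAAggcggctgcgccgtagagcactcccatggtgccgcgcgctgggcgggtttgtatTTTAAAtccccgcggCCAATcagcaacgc
Cenpa, chr5:30666636-30666885, plus strand: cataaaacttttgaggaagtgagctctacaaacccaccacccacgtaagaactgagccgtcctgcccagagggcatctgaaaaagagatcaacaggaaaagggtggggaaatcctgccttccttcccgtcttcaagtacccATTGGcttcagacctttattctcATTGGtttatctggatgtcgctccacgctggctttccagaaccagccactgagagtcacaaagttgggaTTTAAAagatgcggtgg
Bub3, chr7:131560120-131560369, plus strand: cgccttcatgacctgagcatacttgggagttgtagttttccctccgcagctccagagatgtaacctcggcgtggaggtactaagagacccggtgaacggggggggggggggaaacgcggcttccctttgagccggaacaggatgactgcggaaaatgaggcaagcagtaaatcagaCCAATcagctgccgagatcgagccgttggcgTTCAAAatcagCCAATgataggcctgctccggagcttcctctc
Gtse1, chr15:85859457-85859706, plus strand: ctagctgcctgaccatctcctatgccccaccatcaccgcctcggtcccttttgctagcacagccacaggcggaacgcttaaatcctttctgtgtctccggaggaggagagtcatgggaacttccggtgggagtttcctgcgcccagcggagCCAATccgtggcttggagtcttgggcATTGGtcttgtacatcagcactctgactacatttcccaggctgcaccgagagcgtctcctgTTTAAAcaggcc
Pttg1, chr11:43425982-43426231, minus strand: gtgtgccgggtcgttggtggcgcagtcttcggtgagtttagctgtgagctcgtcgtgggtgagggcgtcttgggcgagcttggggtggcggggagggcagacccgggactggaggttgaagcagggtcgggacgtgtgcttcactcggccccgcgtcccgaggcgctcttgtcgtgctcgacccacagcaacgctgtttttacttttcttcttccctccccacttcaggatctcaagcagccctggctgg
In Ccnb1 the letters TTTAAA lie 42 to 37 bases before the start, downstream of CCAAT at 99 to 95 and 67 to 63 bases before it. In Cdk1, TTTGAA occurs at 71 to 66 and at 15 to 10 bases, and in Cenpa TTTAAA occurs at 17 to 12 bases. Gtse1 and Bub3 hold the same kinds of letters, with TTTAAA at 12 to 7 bases in Gtse1 and TTCAAA, the reverse complement of TTTGAA, at 43 to 38 bases in Bub3. None of the searched letters is in the Pttg1 window.

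The 50 genes moved largely as 1 block across the lines. Over the 19 lines, which include the group differences, the median Pearson correlation between pairs of these genes on the log2(TPM + 1) scale was 0.934, and 35 of 50 correlated above 0.95 with the mean of the other 49 genes. Ccna2, cyclin A2, followed the others most closely at 0.991. Pttg1 at 0.322 and Gtse1 at 0.373 followed them least, and Bub3 and Cenpf came next, both at 0.875. All genes within a line share its library and its scaling, so these correlations describe the lines and are given without a test.

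Summed over the 50 genes, the level was 2347 ± 647 TPM in normal lines (SD, n = 7), 2261 ± 649 TPM in PanIN lines (SD, n = 6) and 3407 ± 704 TPM in tumor lines (SD, n = 6). The lowest, median and highest normal lines were at 1068, 2721 and 2852 TPM. PanIN lines ran from 1626 over a median of 2186 to 3478 TPM, and tumor lines from 2281 over 3544 to 4060 TPM. The ranges overlapped. Normal 11 was the lowest of all 19 lines, the next normal line being normal 13 at 1967 TPM. PanIN 6 stood above the other 5 PanIN lines, which reached 2292 TPM, and tumor 4 was the lowest tumor line.

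**Figure D1:**
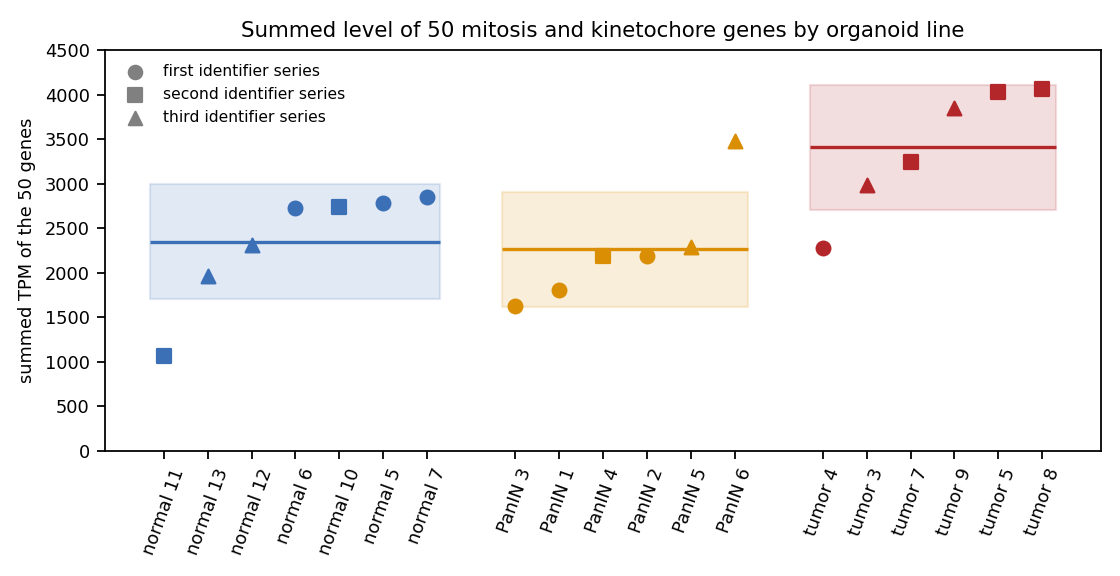
Summed TPM of the 50 genes in each of the 19 organoid lines, grouped as normal, PanIN and tumor, with each point 1 line, the horizontal line the group mean and the shaded band the mean plus or minus 1 SD; shapes show the series of library identifiers. Normal 11 is lowest at 1068 TPM, PanIN 6 reaches 3478 TPM, and 4 of the 6 tumor lines lie between 3243 and 4060 TPM.

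**Figure D2:**
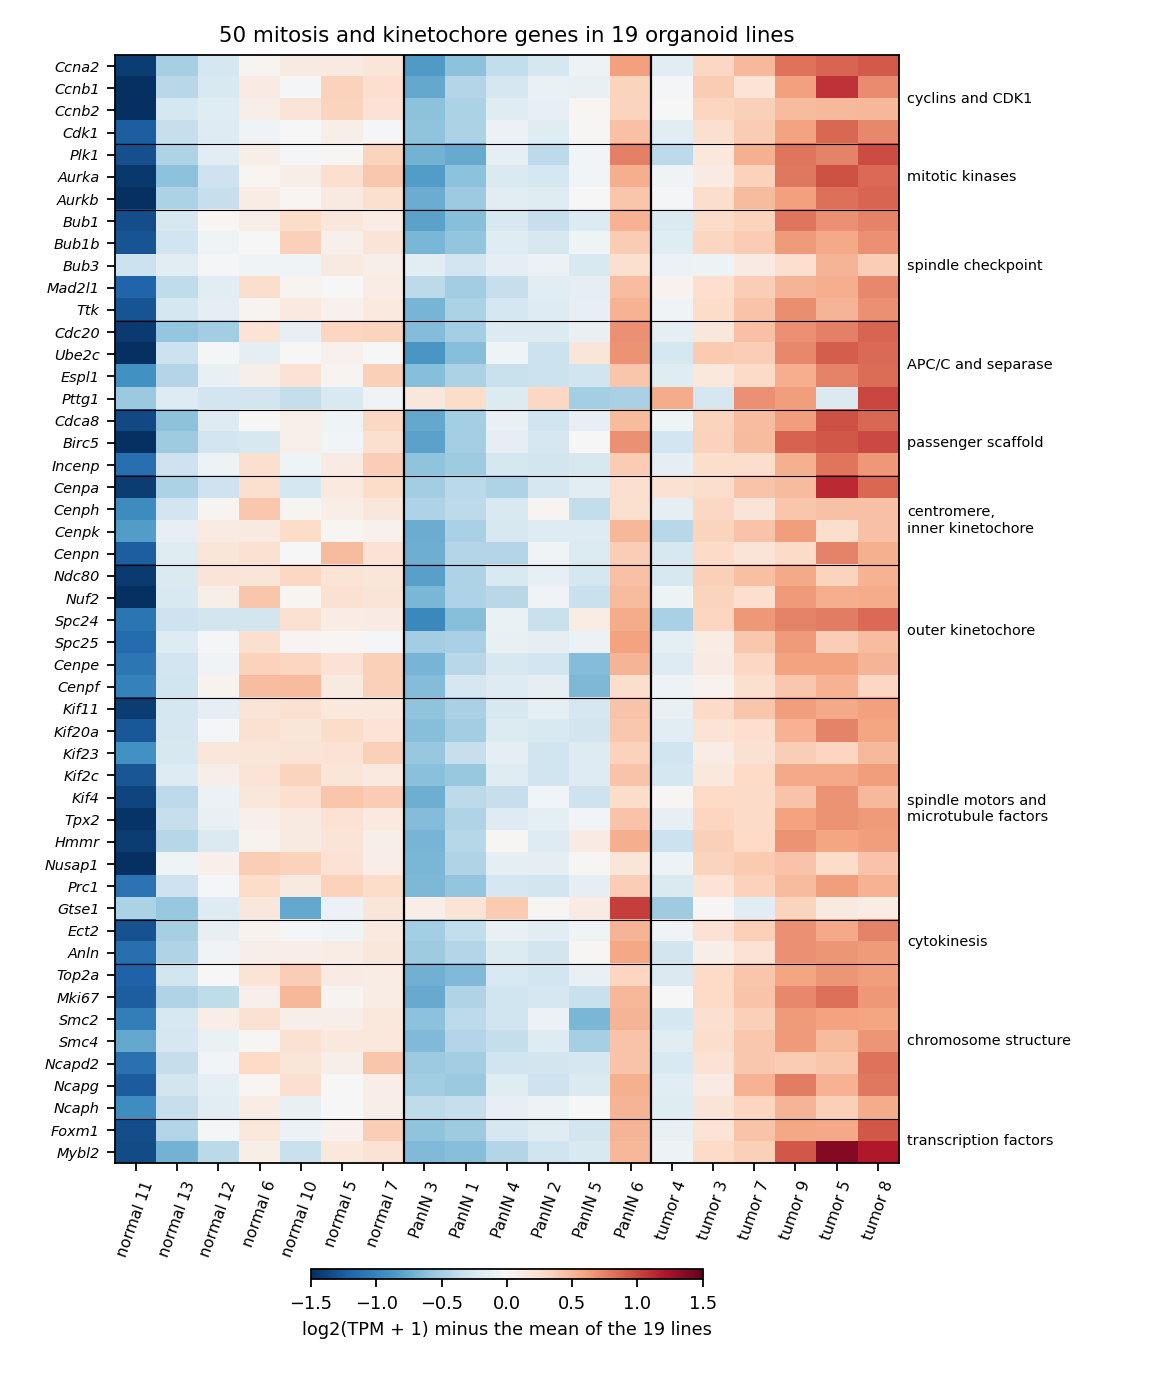
Level of each of the 50 genes (rows, by role) in each of the 19 lines (columns, ordered within a group by the summed TPM of the 50 genes), as log2(TPM + 1) minus the gene's mean over the 19 lines; colours stop at the ends of the scale. Most rows share the low column of normal 11 and the high columns of PanIN 6 and tumor 5, 8 and 9, while Pttg1 and Gtse1 follow another order.

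Between tumor and normal lines, 19 of the 50 genes rose and 0 fell. The background over all 12500 genes tested was 17.8% higher and 14.4% lower. The genes that rose were led by Mybl2, Cenpa, Pttg1, Cdk1, Cdca8 and Ect2, with differences of 0.49 to 1.01 on the log2(TPM + 1) scale among the 19. All 50 had a positive difference, with a median of 0.53 and a range of 0.21 to 1.01, against a median of 0.04 over all genes tested. At an unadjusted p below 0.05 the count was 35 of 50, against 25.1% of all genes. The test was limma on log2(TPM + 1), a scale that understates changes of low genes, with Benjamini-Hochberg adjustment over all genes and a call at an adjusted p below 0.05. In 0 of 50 genes did every tumor line lie above every normal line, against 2.9% of all genes, and in 0 did every tumor line lie below, against 4.36%.

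The count rested on single lines. It was 5 without tumor 8, 7 without tumor 5, 8 without tumor 9, 8 without normal 13, 9 without normal 11, 12 without normal 12, and 34 without tumor 4. The background moved with it: 10.6% of all genes were higher without tumor 8, 12.3% without tumor 5, 11.8% without tumor 9 and 13.4% without normal 13. It was 13.1% without normal 11, 15.5% without normal 12 and 22.7% without tumor 4. Without tumor 8 or tumor 5 the count was near that share. The median difference of the 50 genes lay between 0.36 and 0.64 on the log2 scale over the lines left out, and no gene changed sign in the 32 other settings that did not hold the mean of the genes fixed. Within the first series of library identifiers alone, where tumor 4 is the 1 tumor line, 48 of 50 were negative. Fewer genes passed in fits with sex as a term (11, against 14.7% of all genes) and with library identifier series as a term (11, against 15.8%). A group of 11 rows, several named for mitochondrial transcripts, took from 16.3% of TPM in tumor 5 to 28.6% in normal 11, and with TPM rescaled without them 12 of the 50 genes rose, against 11.5% of all genes. The genes that lost the fewest calls, passing in 31 of 32 other settings, were Mybl2, Cenpa, Pttg1, Cdk1 and Cdca8.

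**Figure D3:**
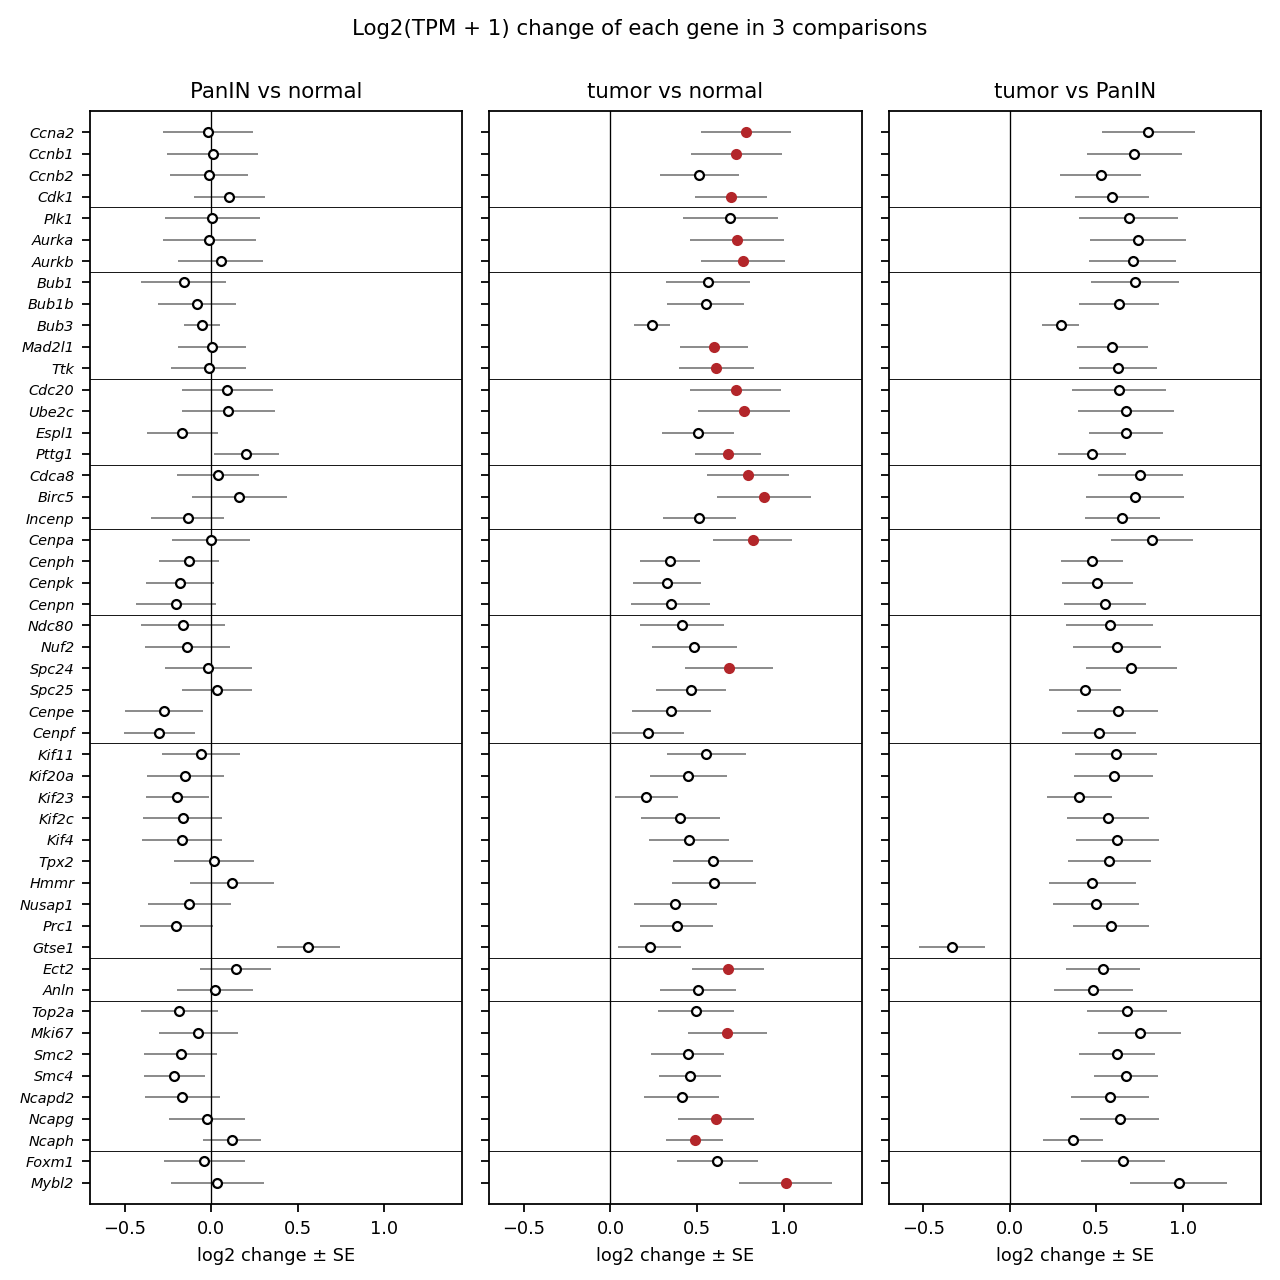
Difference in log2(TPM + 1) with its standard error for each of the 50 genes in the comparisons of PanIN with normal, tumor with normal and tumor with PanIN lines, with genes in the order of their roles; filled red points passed at an adjusted p below 0.05 by limma. The tumor against normal differences all lie above 0, the PanIN against normal differences lie on both sides of it, and filled points occur in tumor against normal alone.

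Among the cyclins and CDK1, which drive entry into mitosis, 3 of 4 rose in tumor lines, against 17.8% of all genes. Each role holds few genes and they share lines, so counts by role do not rank the roles. Cdk1, the catalytic subunit, was at 33.3, 76.7 and 84.4 TPM in the lowest, median and highest normal lines, at 52.3, 72.6 and 108.1 TPM in PanIN lines and at 71.2, 112.7 and 146 TPM in tumor lines. Tumor lines other than tumor 4 were above the highest normal line. The difference between tumor and normal was 0.70 on the log2 scale (SE 0.21), 1.62-fold, with an adjusted p of 0.0165 by limma. Ccnb1, cyclin B1, was at 32.3, 103.8 and 133.8 TPM in normal, 61.3, 92.8 and 132.7 TPM in PanIN and 102.9, 150.0 and 224.5 TPM in tumor lines, with tumor 5 highest of all lines, and it rose 1.66-fold (adjusted p 0.0420, limma). Ccna2 rose 1.72-fold. Ccnb2, cyclin B2, missed the threshold at 1.43-fold (adjusted p 0.0866, limma), with 36.4, 111.9 and 132.4 TPM in normal and 104.6, 141 and 149.1 TPM in tumor lines. Ccnb1, Ccnb2 and Kif4 each have a pseudogene symbol of their own in RefSeq, so reads could be split between copies and their values are uncertain to that extent.

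Of the 3 mitotic kinases, 2 rose, against 17.8% of all genes. Aurkb, the kinase of the chromosomal passenger complex that corrects faulty attachments, was at 13.4, 40.8 and 47.3 TPM in normal, 23.5, 35.3 and 53.6 TPM in PanIN and 39.6, 58.9 and 73.8 TPM in tumor lines, and rose 1.70-fold (adjusted p 0.0230, limma). Aurka, which acts at spindle poles, rose 1.66-fold. Plk1, a kinase of mitotic entry and spindle assembly, was at 9.32, 24.2 and 31.5 TPM in normal, 14.3, 20.5 and 42.4 TPM in PanIN and 18.6, 39.2 and 49.6 TPM in tumor lines. Its difference of 1.62-fold had an adjusted p of 0.0575 by limma, and the tumor and normal ranges overlapped through tumor 3 and tumor 4.

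Spindle checkpoint genes rose in 2 of 5 cases, against 17.8% of all genes. Mad2l1, which encodes the checkpoint inhibitor MAD2, was at 43.0, 100.6 and 120.6 TPM in normal, 69.7, 84.1 and 138.6 TPM in PanIN and 104.0, 136.8 and 166.0 TPM in tumor lines, and rose 1.51-fold (adjusted p 0.0263, limma). The checkpoint kinase gene Ttk rose 1.53-fold. Bub1b and Bub1 differed by 1.46-fold and 1.48-fold with adjusted p of 0.0650 and 0.0809. Bub3, the adaptor that brings BUB1 and BUBR1 to kinetochores, varied least, at 76.6, 93.2 and 105.4 TPM in normal, 78.8, 86.4 and 114.0 TPM in PanIN and 90.4, 109.9 and 137.8 TPM in tumor lines. It differed by 1.18-fold (adjusted p 0.0815, limma), and normal 11 was again the lowest normal line, next to normal 13 at 86.0 TPM.

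In the APC/C and separase group, 3 of 4 genes rose, against 17.8% of all genes. Pttg1, securin, the inhibitor of separase, was at 23.8, 29.3 and 34.1 TPM in normal, 24.7, 35.3 and 44.2 TPM in PanIN and 29.7, 53.8 and 72.3 TPM in tumor lines, and rose 1.60-fold (adjusted p 0.0121, limma). Its pattern was unlike that of the other genes: tumor 3 and tumor 5, at 29.7 and 30.5 TPM, lay within the normal range, and PanIN 6, the highest PanIN line in the other 49 genes, was at 24.9 TPM. Ube2c, the ubiquitin-conjugating enzyme of the APC/C, rose 1.71-fold, and Cdc20, its activator, rose 1.65-fold. Espl1, separase, differed by 1.42-fold (adjusted p 0.0648, limma), with 2.14, 5.03 and 6.52 TPM in normal and 4.20, 6.87 and 9.46 TPM in tumor lines.

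The chromosomal passenger scaffold, which anchors Aurora B, had 2 of 3 genes risen, against 17.8% of all genes. Cdca8, borealin, was at 14.6, 36.8 and 48.4 TPM in normal, 22.3, 33.4 and 54.0 TPM in PanIN and 37.1, 57.0 and 76.2 TPM in tumor lines and rose 1.73-fold (adjusted p 0.0170, limma). Birc5, survivin, rose 1.85-fold. Incenp differed by 1.43-fold (adjusted p 0.0643, limma), with ranges of 11.1 to 33.1 TPM in normal and 23.2 to 45.1 TPM in tumor lines.

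In the kinetochore, 2 of 10 genes rose, 1 of 4 at the centromere and inner plate and 1 of 6 at the outer plate, a share close to the 17.8% of all genes. Cenpa, the centromeric histone H3 variant, was at 8.74, 20.9 and 30.7 TPM in normal, 17.2, 19.9 and 29.9 TPM in PanIN and 29.8, 34.9 and 55.9 TPM in tumor lines, and rose 1.77-fold (adjusted p 0.0114, limma). Tumor 3 and tumor 4 were below the highest normal line, and the other 4 tumor lines were above it. The inner kinetochore genes Cenph, Cenpk and Cenpn differed by 1.27-fold, 1.25-fold and 1.27-fold, with adjusted p of 0.130, 0.209 and 0.253. In the NDC80 complex, which grips microtubules, Spc24 rose 1.61-fold (adjusted p 0.0448, limma), from 12.1, 22.2 and 31.9 TPM in normal to 19.1, 44.3 and 49.6 TPM in tumor lines. The complex's other 3 genes did not pass. Ndc80 was at 8.44, 28.0 and 30.7 TPM in normal, 13.5, 20.5 and 33.5 TPM in PanIN and 20.6, 32.8 and 36.8 TPM in tumor lines, 1.33-fold apart (adjusted p 0.194, limma). Cenpf, a large protein of the kinetochore's outermost layer, had the largest p of all 50 genes, at 9.22, 21.6 and 27.5 TPM in normal and 18.6, 23.9 and 28.4 TPM in tumor lines, 1.16-fold apart (adjusted p 0.436, limma). The kinetochore motor gene Cenpe lay at 1.28-fold (adjusted p 0.236, limma).

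Of the 10 spindle motors and microtubule factors, 0 passed by limma, against 17.8% of all genes higher. At an unadjusted p below 0.05 there were 3 higher, against 25.1% of all genes. All 10 differences were positive, with a median of 0.43 on the log2 scale. Tpx2, an activator of Aurora A and a spindle assembly factor, was nearest to the threshold at 1.51-fold (adjusted p 0.0557, limma), with 16.6, 50.3 and 55.9 TPM in normal, 30.2, 42.5 and 64.6 TPM in PanIN and 43.9, 66.7 and 77.2 TPM in tumor lines. Kif23, a kinesin of the central spindle, was farthest from it, at 38.4, 82.8 and 93.3 TPM in normal, 48.9, 61.3 and 92.9 TPM in PanIN and 59.0, 88.4 and 102.4 TPM in tumor lines, 1.15-fold apart (adjusted p 0.400, limma). In this gene 4 of the 6 tumor lines lay below the highest normal line. The remaining motors, Kif11, Kif20a, Kif2c and Kif4, lay between 1.32-fold and 1.47-fold.

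For cytokinesis, Ect2, which activates RhoA at the cleavage site, was at 20.5, 50.3 and 58.0 TPM in normal, 36.6, 47.5 and 75.4 TPM in PanIN and 50.6, 72.9 and 88.4 TPM in tumor lines, and rose 1.60-fold (adjusted p 0.0185, limma). Anln, anillin, a scaffold of the contractile ring, differed by 1.42-fold (adjusted p 0.0834, limma), with 18.8, 45.0 and 47.9 TPM in normal and 34.8, 58.2 and 68.8 TPM in tumor lines.

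Chromosome structure genes rose in 3 of 7 cases, against 17.8% of all genes. Mki67, a coat protein of mitotic chromosomes and the usual marker of cycling cells, was at 35.9, 88.3 and 121.5 TPM in normal, 50.5, 68.8 and 121.2 TPM in PanIN and 85.5, 125.0 and 153.3 TPM in tumor lines, and rose 1.60-fold (adjusted p 0.0310, limma). The condensin genes Ncaph and Ncapg rose by 0.49 and 0.61 on the log2 scale. Top2a, the topoisomerase that untangles sister chromatids, had the highest median of the 50 genes in tumor lines, with 161.7, 267.3 and 297.5 TPM, after 80.4, 202.3 and 243.6 TPM in normal and 113.3, 157.1 and 235.7 TPM in PanIN lines, and missed the threshold at 1.41-fold (adjusted p 0.0897, limma). Ncapd2, a condensin I subunit, had the largest p of the group, 1.33-fold apart (adjusted p 0.148, limma).

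Both transcription factors of the list act on G2 and M genes. Mybl2, B-Myb, showed the largest difference of the 50 genes, 1.01 on the log2 scale (SE 0.27), 2.02-fold (adjusted p 0.00939, limma). It was at 3.90, 8.82 and 13.4 TPM in normal, 6.85, 8.61 and 16.5 TPM in PanIN and 10.8, 18.8 and 31.2 TPM in tumor lines. Tumor 5, 8 and 9, at 22.7 to 31.2 TPM, were above every other line, and tumor 4 lay within the normal range. Foxm1 stood just outside the threshold at 1.53-fold (adjusted p 0.0501, limma), with 3.98, 11.4 and 15.2 TPM in normal, 7.22, 9.44 and 16.9 TPM in PanIN and 10.6, 16.8 and 22.8 TPM in tumor lines. Spc24 at 0.0448 and Aurka at 0.0445 were the nearest on its other side.

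Between tumor and PanIN lines, 0 of 50 genes passed by limma, although 49 differences were positive and the median was 0.62 on the log2 scale, against 0.06 over all genes tested. The background of calls was 0.392% higher and 1.21% lower. At an unadjusted p below 0.05 the count was 46 of 50, against 20.2% of all genes, and 0 were lower, against 9.5%. The smallest adjusted p was 0.0602, for Smc4. Gtse1 was the 1 gene with a negative difference, at -0.33. PanIN 6, tumor 4 and normal 11 each changed the count: 44 genes passed without PanIN 6, 34 without tumor 4 and 30 without normal 11, with backgrounds of 15.9%, 13.3% and 4.07% higher. Without normal 11 and PanIN 6 together, a setting chosen after seeing the data, it was 48, against 17.2% of all genes. In 0 of 50 genes did every tumor line lie above every PanIN line, against 0.832% of all genes, and in 0 did every tumor line lie below, against 0.968%. The same tumor lines entered both tumor comparisons, which therefore are not independent.

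Between PanIN and normal lines, 0 of 50 genes passed in either direction by limma, against backgrounds of 3.1% higher and 3.68% lower. At an unadjusted p below 0.05, 1 gene was higher and 0 lower, against 7.99% and 11% of all genes. Differences were positive for 18 genes and negative for 32, with a median of -0.03 on the log2 scale and the same median of -0.03 over all genes tested. That split rested on single lines: without normal 11 it was 2 positive and 48 negative, with a median of -0.23, and without PanIN 6 it was 4 and 46. Standard errors of single genes lay between 0.10 and 0.27 on that scale. In 0 of 50 genes were the groups apart, against 1.26% of all genes with PanIN above and 1.79% with PanIN below. The lowest values were those of Cenpf at -0.30 (adjusted p 0.479, limma) and Cenpe at -0.27 (adjusted p 0.582, limma), neither of which passed. Without normal 11 and PanIN 6, a setting chosen after seeing the data, 7 genes were lower, against 2.96% of all genes: Cenpe, Cenpf, Kif23, Ndc80, Nuf2, Nusap1 and Smc4, by 0.46 to 0.61 on the log2 scale, and the median of the 50 genes was -0.37.

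Gtse1, a microtubule-binding protein known to restrain p53, was the 1 gene with an unadjusted p below 0.05 between PanIN and normal lines. It was at 20.4, 31.1 and 40.5 TPM in normal, 35.9, 40.0 and 74.0 TPM in PanIN and 24.2, 37.2 and 45.0 TPM in tumor lines. PanIN 6 was well above the rest, and the lowest normal line was normal 10, not normal 11. The difference between PanIN and normal was 0.56 on the log2 scale (SE 0.18), 1.47-fold, with an unadjusted p of 0.00604 and an adjusted p of 0.0719 by limma. It passed with quantile normalization (adjusted p 0.0365, limma), with median-of-ratios scaling (adjusted p 0.0341, limma) and without normal 7 (adjusted p 0.0454, limma). In the authors' deposited table the difference was 0.61 on the log2 scale with an adjusted p of 0.00926.

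**Figure D4:**
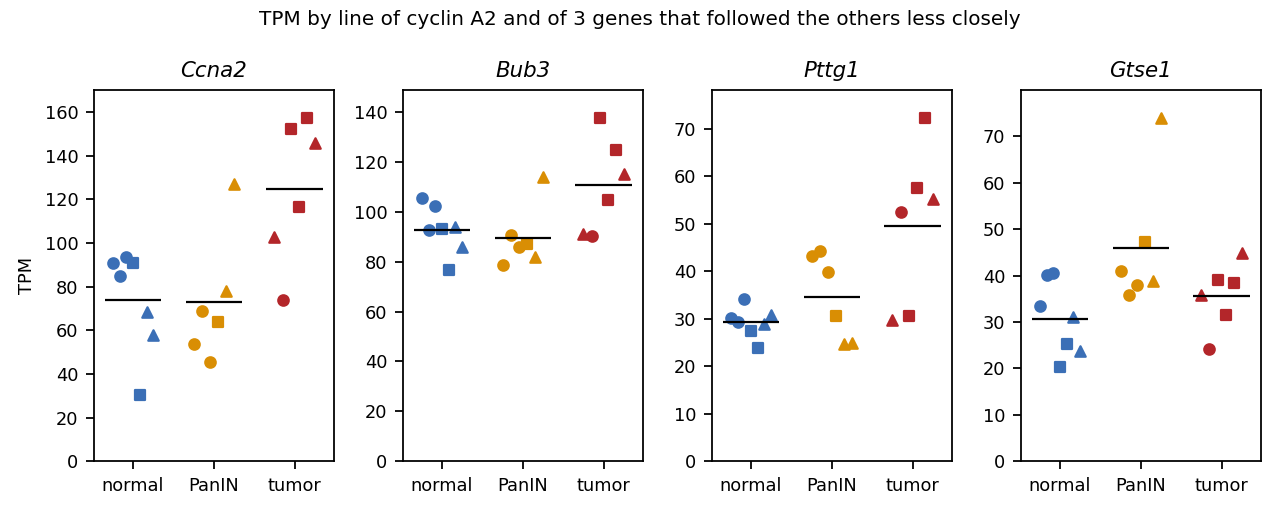
TPM in each of the 19 lines, by group, for Ccna2, which followed the other genes most closely, and for Bub3, Pttg1 and Gtse1; each point is 1 line, with circles, squares and triangles for the 3 identifier series in turn, and the bar is the group mean. Pttg1 runs from 23.8 to 72.3 TPM with tumor 3 and tumor 5 among the normal lines, and Gtse1 is highest in PanIN 6 at 74.0 TPM.

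The mean of the 50 genes was then entered as a term in a fit chosen after seeing the data, so that each gene was compared between groups at equal level of the set. By construction this removes what the genes share. Each gene is also part of that mean, so the 50 differences in a comparison average 0. Some genes must then lie above 0 and others below it, and a difference is relative to the set alone. Between tumor and normal lines 0 genes were higher (background 3.23%) and 1, Kif23, was lower, by 0.26 on the log2 scale (adjusted p 0.00724, limma, background 4.96%). Between tumor and PanIN lines 0 were higher and 0 lower (background 0.008% and 0.136%). Between PanIN and normal lines 4 were higher (background 4.5%) and 2 lower (background 5.04%). Gtse1 had a difference of 0.58 (adjusted p 0.0145, limma), Birc5 0.22 (0.0427), Ect2 0.18 (0.0102) and Ncaph 0.15 (0.0457). Prc1, a crosslinker of antiparallel microtubules, and Kif23 were both at -0.16, with adjusted p of 0.0280 and 0.0316.

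Library identifiers fall into 3 number series, and each holds lines of all 3 groups in unequal numbers. What the series stand for is not given in the labels. In series 1, PanIN lines lay below normal lines, with a median difference over the 50 genes of -0.62 on the log2 scale (3 against 3 lines), and in the other series above them, at 0.33 (1 against 2) and 0.36 (2 against 2). The direction of the PanIN against normal difference therefore differed between series: 2 of 50 genes were positive in series 1, 49 in series 2 and 47 in series 3. That change of direction rested on few lines, normal 11 and PanIN 6 among them. Summed over the 50 genes, PanIN 4 of series 2 was at 2184 TPM, between normal 11 at 1068 and normal 10 at 2736 TPM. In series 3, PanIN 5 at 2292 TPM lay between normal 13 at 1967 and normal 12 at 2308 TPM. PanIN 6 of that series, at 3478 TPM, lay above both. Tumor lines against normal lines gave -0.30 in series 1, where tumor 4 is the 1 tumor line and 48 of 50 genes were negative, 1.1 in series 2 (3 against 2) and 0.63 in series 3 (2 against 2), with all 50 positive in both. Tumor against PanIN lines gave 0.30, 0.79 and 0.28, with 49 genes positive in each series. All 3 normal lines of series 1 were at 2721 TPM or more in summed level, and normal 11, 12 and 13, the lowest normal lines, are in the other series. With series 2 and 3 alone, a setting chosen after seeing the data, 43 of the 50 genes were higher in tumor than normal lines, against 23.7% of all genes, and the PanIN against normal median was 0.39.

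Sex was examined because the groups differ in it. All 3 female PanIN lines are in identifier series 1 and all 3 male ones in series 2 and 3, so sex and series cannot be told apart within the PanIN group. In the interaction of sex with the tumor against PanIN difference, 1 of the 50 genes passed by limma, against 9.66% of all genes, and 12 had an unadjusted p below 0.05, against 28.9%. In that with the tumor against normal difference 0 passed, against 0.016%, with 10 at an unadjusted p below 0.05, against 13.6%. In that with the PanIN against normal difference 0 passed, against 0% of all genes, with 1 at an unadjusted p below 0.05, against 5.7%. In both tumor comparisons the difference in males minus that in females was negative for all 50 genes. On the log2 scale it ran from -1.41 to -0.09 against PanIN lines and from -1.14 to -0.16 against normal lines. The genes share lines, and this shared direction was not tested. The gene that passed was Spc24, for which the tumor against PanIN difference was 1.37 lower in males than in females on the log2 scale (adjusted p 0.0467, limma interaction), with PanIN means of 17.2 TPM in females and 31.6 TPM in males and tumor means of 46.1 and 33.3 TPM. Pttg1 was at 39.9 to 44.2 TPM in the 3 female PanIN lines and at 24.7 to 30.7 TPM in the 3 male ones, and at 55.2 to 72.3 TPM in female and 29.7 to 52.5 TPM in male tumor lines. These Pttg1 ranges did not overlap between the sexes within either group. The gene was picked after its values were seen, and the share of all genes that separate in this way was not counted. In normal lines the Pttg1 ranges did overlap, at 23.8 to 30.8 TPM in the 5 female and 27.5 to 34.1 TPM in the 2 male lines, with the higher mean in males. Its interaction of sex with group did not pass, at adjusted p of 0.222 for tumor against normal and 0.860 for PanIN against normal (limma).

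A companion list of 90 other mitotic genes, among them more kinetochore subunits, cohesin and spindle factors, had 87 in the table and 86 tested. Between tumor and normal lines 31 of the 86 rose, against 17.8% of all genes, and 0 fell, against 14.4%, with a median of 0.38 on the log2 scale. Those with the smallest p were Cdc26 (0.34, adjusted p 0.000618, limma), a subunit of the APC/C, Pmf1 (0.74, 0.00927), a subunit of the MIS12 complex, Pds5a (0.31, 0.00980), a cohesin regulator, and Trip13 (0.73, 0.0125), which remodels MAD2. Between tumor and PanIN lines 2 rose, against 0.392% of all genes, Cdc26 (adjusted p 0.0394, limma) and Mis12 (adjusted p 0.0469, limma). Between PanIN and normal lines 0 passed by limma, against 3.1% higher and 3.68% lower of all genes. At an unadjusted p below 0.05, 1 was higher and 3 lower of the 86, against 7.99% and 11% of all genes. Over the 19 lines, 54 of the 86 correlated above 0.9 with the mean of the 50 genes, against 2.2% of the tested genes outside both lists. Outside both lists, the 10 genes nearest to that mean had correlations of 0.978 to 0.988. They were C330027C09Rik and F630043A04Rik, of which RefSeq names the former Cip2a and lists the latter as a synonym of Ska3, then Ccdc99, which RefSeq names Spdl1, and Prim2, Poc1a, Cks2, Vrk1, Depdc1b, Ercc6l and Hat1. The table also has a row of its own named Ska3, at 0 to 1.17 TPM, so which transcripts the F630043A04Rik row counts is uncertain.

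Because the tumor lines carry the Trp53 allele, levels of Cdkn1a, the CDK inhibitor p21 and a p53 target, were set beside the set. Cdkn1a was at 53.6 ± 15.3 TPM in normal (SD, n = 7), 80.4 ± 11.7 TPM in PanIN (SD, n = 6) and 34.4 ± 9.88 TPM in tumor lines (SD, n = 6). It fell by 0.62 on the log2 scale between tumor and normal lines (adjusted p 0.0173, limma) and by 1.24 between tumor and PanIN lines (adjusted p 0.00289, limma). The PanIN against normal difference of 0.61 did not pass (adjusted p 0.0549, limma). Normal 11, lowest in the 50 genes, had 69.1 TPM of Cdkn1a, within the normal range of 34.2 to 74.1 TPM. Every PanIN line, at 64.9 TPM or more, was above every tumor line, at 47.0 TPM or less, including PanIN 6, whose summed level of the 50 genes lay within the tumor range. Cdkn2a rose by 0.84 between tumor and normal lines (adjusted p 0.000617, limma), and Trp53 itself did not pass (adjusted p 0.816, limma). Whether either inhibitor has a part in the levels of the 50 genes was not tested.

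**Figure D5:**
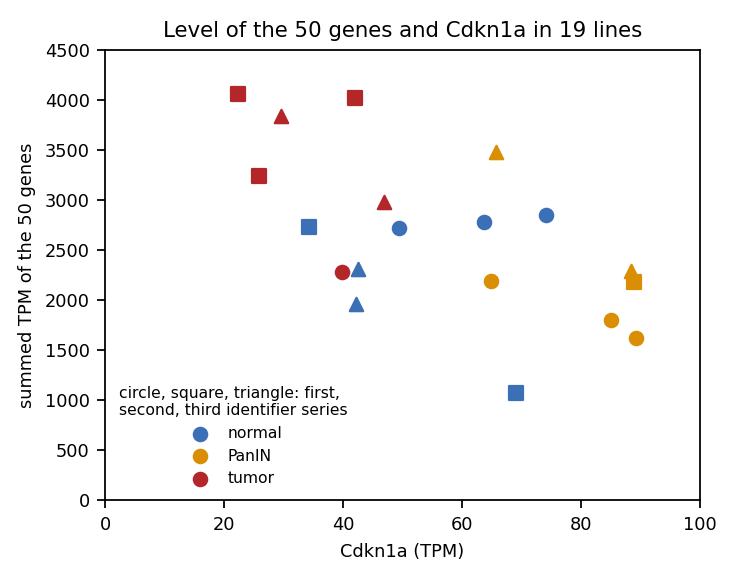
Summed TPM of the 50 genes (vertical axis) against Cdkn1a in TPM (horizontal axis), with each point 1 of the 19 lines, coloured by group and shaped by identifier series. PanIN lines lie at 64.9 to 89.3 TPM of Cdkn1a, to the right of all tumor lines at 22.3 to 47.0 TPM, while normal lines span 34.2 to 74.1 TPM.

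The authors' deposited table, whose comparisons were made with another method, calls more of the 50 genes. In the authors' deposited table, 24 of 50 had higher levels in tumor lines than in normal ones at an adjusted p below 0.05, against 16.2% of all genes with a value, and 0 were lower, against 16.4%. Between tumor and PanIN lines the authors' deposited table has 9 higher, against 5.1%, and 0 lower, against 6.55%. Between PanIN and normal lines the authors' deposited table has 1 higher, Gtse1, against 5.53%, and 0 lower, against 4.94%.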

How the data were processed

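Levels of 50 genes were compared between 7 normal, 6 PanIN and 6 tumor organoid lines of the mouse pancreas, grouped by the tissue and genotype given in the labels. Per the labels' protocols, total RNA was depleted of ribosomal RNA and made into strand-marking libraries. The authors deposited TPM per gene and line. Genome build mm9, Bowtie 1.1.0 and RSEM 1.2.11 are named in the submitters' processing notes, beside FastQC, DESeq and DESeq2 1.4.1, with no role stated for each. No annotation is named. The table the authors deposited also holds, per the file headers, a log2 fold change with its standard error, a test statistic (a score), a p-value and an adjusted p-value for each comparison. Of these, fold changes and adjusted p-values are quoted and credited to the authors. The number of columns of other samples was 0, and 0 columns were identical.

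TPM keeps no depth, so limma 3.58.1 in R 4.3.3 was run on log2(TPM + 1), with 1 mean per group over all 19 lines, eBayes with trend, two-sided tests, and Benjamini-Hochberg adjustment over the 12500 genes with a TPM of at least 1 in at least 6 lines. The script was tested on simulated data. Tables were read in R and in Python 3.11.15 (pandas 2.3.3), and figures were drawn with matplotlib 3.10.9. The members and lists were chosen with earlier results of these data known. By rule, values were given for a fixed set of members and, in each role class, for the members with the smallest and the largest p between tumor and normal lines; the companion list by counts and the 4 smallest p; and the 10 nearest genes. Other members named, and the sex split of Pttg1, were chosen after their values were seen. Alternatives tried were another pseudocount and filter, other scalings, terms for sex and identifier series, a replicate block, fits to the groups compared, eBayes without trend, and leaving out lines. Count models were not run, since the table holds no counts. Protein sequences were not used here. Some alleles of these mice are not reported here.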

Additional observations from a re-analysis of the deposited data

Results flagged for a closer look

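Within each group, the gap between the most extreme line and its nearest neighbour was divided by the range of the group, on log2(TPM + 1), and compared with Dixon's critical value at 95%. In each group 51 values were examined, the 50 genes and their mean, and chance alone marks about 1 in 20 groups. The genes share lines, so their results are not independent of each other. Other genes were not examined in this way, so whether a line stands apart in these genes alone was not tested.

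Normal 11 was far below the other 6 normal lines in 25 of 51 values. The gap as a share of the range was 0.575 for Ccna2, 0.623 for Ccnb1, 0.679 for Ccnb2, 0.676 for Cdk1, 0.594 for Aurkb, 0.676 for Bub1, 0.598 for Bub1b and 0.715 for Ttk. It was 0.752 for Ube2c, 0.643 for Cenpk, 0.615 for Cenpn, 0.696 for Ndc80, 0.663 for Nuf2, 0.595 for Spc24, 0.689 for Spc25 and 0.699 for Kif11. In the remaining values it was 0.664 for Kif20a, 0.679 for Kif2c, 0.663 for Tpx2, 0.616 for Hmmr, 0.783 for Nusap1, 0.594 for Top2a, 0.63 for Smc2, 0.655 for Ncapg and 0.615 for the mean of the 50 genes.

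PanIN 6 was far above the other 5 PanIN lines in 4 of 51 values, with a gap of 0.677 for Espl1, 0.697 for Ncapd2, 0.649 for Ncapg and 0.627 for Mybl2. Tumor 4 was far below the other 5 tumor lines in 4 of 51 values, with a gap of 0.639 for Ccnb2, 0.646 for Cenpk, 0.711 for Ndc80 and 0.699 for Nusap1. Both counts are not far from the share that chance alone marks.

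Between the sexes, the tumor against PanIN difference differed for Spc24, a subunit of the NDC80 complex. Its tumor against PanIN difference in males minus that in females was -1.37 on the log2 scale (adjusted p 0.0467, limma interaction over all genes). Of the 50 genes 1 passed in this interaction, against 9.66% of all genes tested, and 12 had an unadjusted p below 0.05, against 28.9%. These genes were thus not called more often than the rest. The value was negative in all 50, from -1.41 for Plk1 to -0.09 for Pttg1, a shared direction that was not tested. The female PanIN lines lay at 13.4 to 21.3 TPM and the male ones at 25.1 to 40.3 TPM, while female tumor lines lay at 42.9 to 49.6 TPM and male ones at 19.1 to 46.9 TPM. The lowest male tumor line is tumor 4. All 3 female PanIN lines are in identifier series 1 and all 3 male ones in the other series, so sex and series cannot be told apart within the PanIN group.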

How the results depend on the processing

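Between tumor and normal lines, 19 of the 50 genes passed, against 17.8% of all genes. The count was 10 with no filter on low values (10.4% of all genes). It was 12 with TPM rescaled without the 11 rows that lack an authors' comparison (11.5%). It was 11 with identifier series as a term (15.8%) and 11 with sex as a term (14.7%). In identifier series 2 and 3 alone, a setting added after seeing the data, it was 43 (23.7%). Leaving out 1 line gave counts from 5 (without tumor 8, 10.6% of all genes) to 34 (without tumor 4, 22.7%). The medians were then 0.36 to 0.64 on the log2 scale. The rescaling turned the split over all genes from 2219 higher and 1805 lower to 1441 higher and 2382 lower. Between tumor and PanIN lines, where 0 passed, the count was 1, Cenpa, in a fit to those groups alone (0.16% of all genes). It was 48 without normal 11 and PanIN 6 (17.2%), a setting added after seeing the data. It ran from 0 to 44 (without PanIN 6, 15.9%) when 1 line was left out. Between PanIN and normal lines, where 0 passed, 1 gene, Gtse1, was higher with quantile normalization (3.65% of all genes) and with median-of-ratios scaling (4.06%). It was also higher in identifier series 2 and 3 alone (3.02%). Without normal 11 and PanIN 6, 7 genes were lower (2.96%). Counts of higher genes ran from 0 to 1 with 1 line left out. The median between PanIN and normal lines was 0.39 on the log2 scale in series 2 and 3 alone, and -0.23 to 0.04 with 1 line left out. The other settings, among them a pseudocount of 0.1, a filter at TPM 5 and eBayes without trend, left each of these counts within 1.5 times. The causes were not tested. Depth is unknown for every value.

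With the line number as a replicate block, 0 of the genes described here passed in each comparison. Few of all genes tested passed in that setting. Between tumor and normal lines 0.288% were higher and 1.51% lower. Between tumor and PanIN lines it was 0.008% and 0.056%, and between PanIN and normal lines 0.592% and 1.47%. The medians of the genes described here were 0.41 between tumor and normal, 0.48 between tumor and PanIN and -0.05 between PanIN and normal lines. The labels do not say whether the numbers pair lines. Over all genes tested, deviations from the group means of same-numbered lines correlated at 0.25 and -0.31 between tumor and normal lines. The correlations were 0.07 and -0.25 between PanIN and normal lines and 0.06 to 0.10 between tumor and PanIN lines. Of the 3 tumor lines with a PanIN line of the same number, 1 correlated best with it. These few values cannot decide whether same-numbered lines share a mouse.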
